A study of Sus scrofa with 30 samples.

Results

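The enzymes that make glucose and urea in the liver were followed in 30 female pigs of low or normal birth weight. Samples were taken before and directly after a period of feed restriction, and after refeeding. The list named 10 genes by human protein identifier: PCK1, PCK2, G6PC, TAT and PKLR for glucose and amino acid metabolism, and CPS1, OTC, ASS1, ASL and ARG1 for the urea cycle. Of these, 6 had a row among the 19864 rows of the authors' table, namely PCK1 (ENSP00000319814), PCK2 (ENSP00000216780), G6PC (ENSP00000253801), TAT (ENSP00000348234), OTC (ENSP00000039007) and ARG1 (ENSP00000349446). The other 4, PKLR, CPS1, ASS1 and ASL, were not analysed here. The members were listed by name, with earlier results of these data known. Their symbols come from that list, since the files used here do not pair the rows with symbols.

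Gluconeogenesis builds glucose from lactate, glycerol and amino acids when the diet supplies too little of it. Oxaloacetate is turned into phosphoenolpyruvate by phosphoenolpyruvate carboxykinase, whose cytosolic form is encoded by PCK1 and whose mitochondrial form is encoded by PCK2, and glucose-6-phosphatase, encoded by G6PC, releases free glucose at the end of the path. TAT, tyrosine aminotransferase, starts the breakdown of tyrosine and is a classical target of glucocorticoids in the liver. The nitrogen set free from amino acids is detoxified in the urea cycle, where OTC, ornithine transcarbamylase, forms citrulline in the mitochondrion and ARG1, arginase, splits arginine into urea and ornithine. In fasting mammals PCK1, G6PC and TAT are known to be induced by glucagon and glucocorticoids and repressed by insulin.

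The pigs formed 10 groups of 3, with birth weights of 1.4 to 1.6 kg (N) or 0.8 to 1.1 kg (U). At T1 all pigs had been fed freely since weaning (groups N and U). At T2 the restricted pigs (NR and UR) had received 50% of the freely eaten amount for 3 weeks, while the controls (NK and UK) ate freely. At T3 the same 4 treatments were sampled after refeeding, given as 5 weeks, in which every pig ate freely. The labels give days 76, 97 and 103 for the time points and the series text gives days 75, 98 and 131. The labels also give day 131 as the end of refeeding, which differs from their day 103 for T3. Which day holds, and so the length of refeeding, is not settled here. Liver was taken from other animals at each time point, and the piglets were picked for birth weight from a litter, with no label that says which pigs were littermates. Restriction was a smaller ration, and whether the pigs were fasted before sampling is not given in the sources used here.

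Total RNA of each liver was hybridised to an Agilent array in 1 colour, and between 53.6% and 74.3% of the probes on an array were well above background. Values are given as log2 of the authors' intensity, a scale on which a difference of 1 is a doubling. The probe that came nearest to each of the 6 rows was well above background on 30 of 30 arrays. Levels were not set against each other between genes, because each probe has its own brightness. Nor were they between time points, or between birth weights at T2, because the table appeared to be normalized in separate sets. These were T1, T3, and at T2 each birth weight by itself. In T1 the 3 columns labelled N each matched the scanner file of another N pig, which leaves the group means untouched; replicate numbers below are those of the table. The arrays lay on 6 slides. At T3 the third replicate of every group lay on slide 6, and the first NK pig was the only array of scan 3. In whole liver, fewer hepatocytes and less RNA per hepatocyte cannot be told apart, and the rows of liver cell type markers could not be named.

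None of the 6 genes passed the adjusted threshold in any comparison of groups. In each of 12 comparisons of birth weight, restriction and their combination, limma called 0 members at an adjusted p under 0.05, and it called 0 of all 19864 rows, a background of 0%. At an unadjusted p under 0.05 the 6 members gave 1 difference in NR minus NK at T2, 2 in the restriction effect averaged over birth weights at T2, 1 in its difference between birth weights at T2, 1 in UK minus NK at T3, and 0 in each of the other 8 comparisons with all pigs and no batch term. The background at that threshold was 7.27%, 8.43%, 3.4% and 3.44% of all rows in the first 4 of these comparisons. In those without a member it was 2.86% for U minus N at T1, 4.17% for UR minus UK at T2 and 3.61% for the change of the averaged effect from T2 to T3. Among the comparisons within T3 without a member it was 2.64% for the averaged effect, 3.01% for its difference between birth weights, 2.09% for UR minus NR, 1.91% for UR minus UK and 4.61% for NR minus NK. The median difference of the 6 members was 0.42 on the log2 scale for NR minus NK at T2 (4 higher, 2 lower; -0.04 over all rows) and 0.27 for UK minus NK at T3 (5 higher, 1 lower; -0.04 over all rows). In the other 10 comparisons it lay between -0.51 and 0.21, and over all rows between -0.07 and 0.09. The pooled SD within groups was largest for TAT (1.61) and ARG1 (1.49) at T1, for TAT (1.36) and PCK1 (1.32) at T2, and for ARG1 (0.74) at T3. For PCK2 and OTC it lay between 0.16 and 0.30 at the 3 time points.

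**Figure D1:**
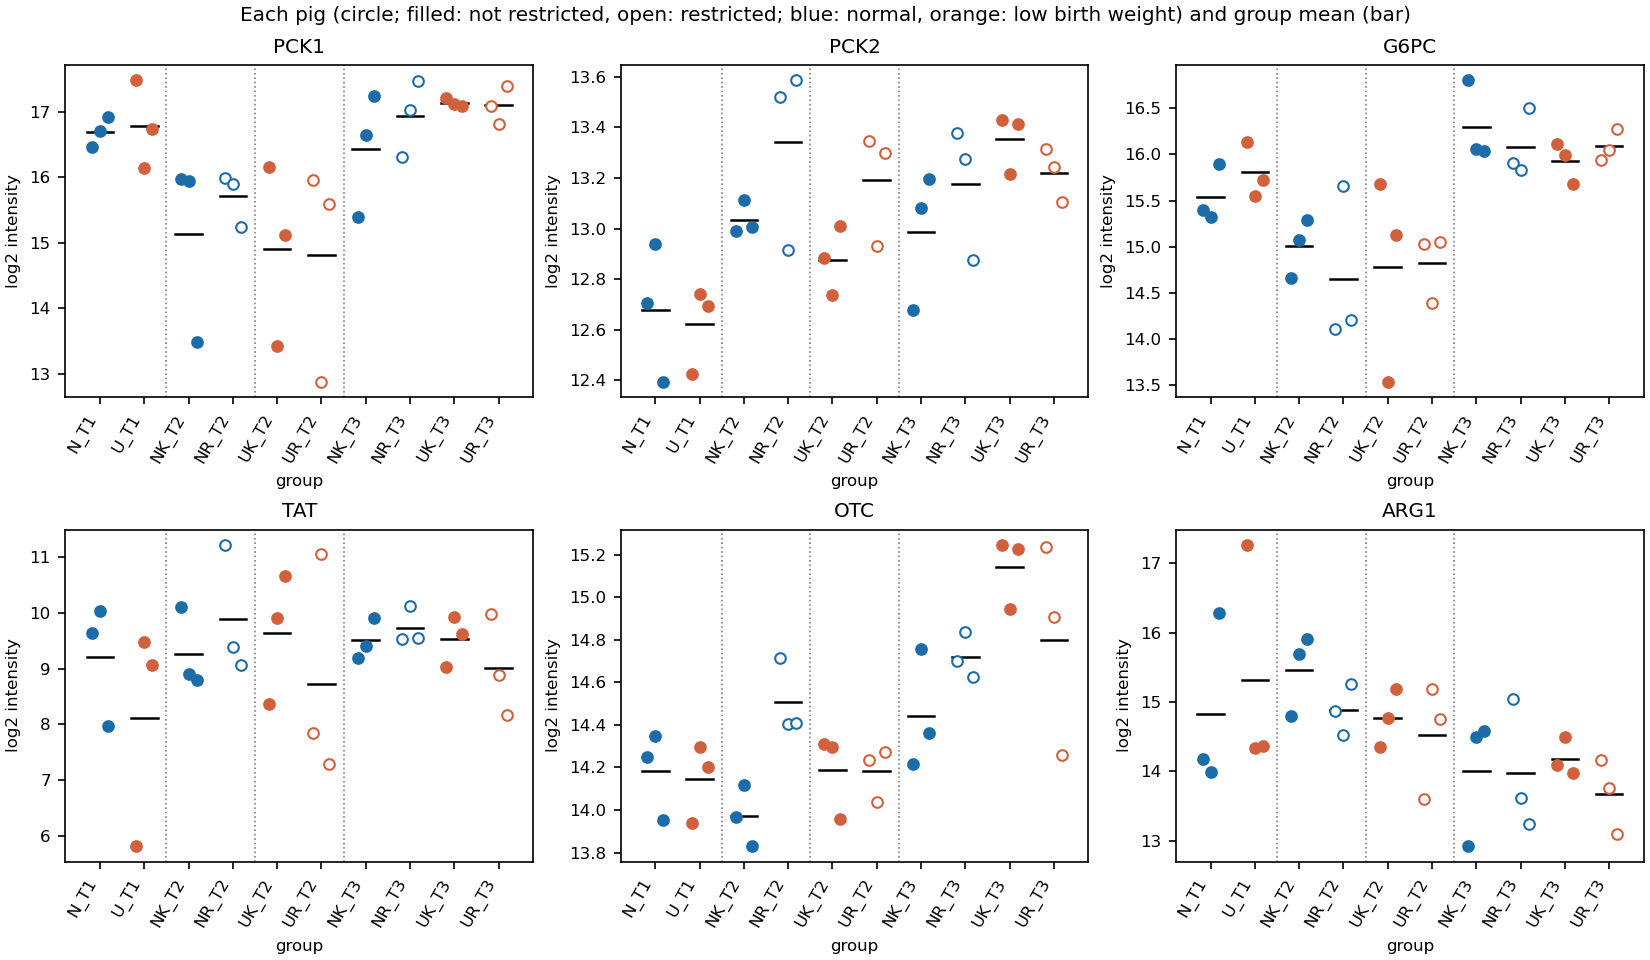
Log2 intensity (vertical axis, with its own range in each panel) of the 6 enzyme genes in each of the 30 pigs. Groups run along the horizontal axis, circles are pigs, bars are group means, and dotted lines part the sets that appeared to be normalized separately. A reader should see that the OTC values of NR lie above those of NK at T2 (14.41 to 14.71 against 13.83 to 14.12), and that single pigs of PCK1, TAT and ARG1 lie far from their group.

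OTC, the citrulline-forming enzyme of the urea cycle, gave the lowest p of the 6 genes. At T2 the 3 restricted pigs of normal birth weight had log2 intensities of 14.71, 14.41 and 14.41, and their 3 controls had 13.97, 14.12 and 13.83. Each restricted pig was above each control. The difference was 0.54 on the log2 scale (SE 0.16, 95% confidence interval 0.19 to 0.88, n = 3 per group), or 1.45-fold, with a limma p of 0.00596 and an adjusted p of 0.622. Among all rows, 4.09% had all 3 NR values above all 3 NK values and 7.17% had them all below. Slide 5 held 1 NR and 2 NK pigs, and between these the difference was 0.43. The unadjusted p stayed under 0.05 without any one of the 6 arrays (0.00650 to 0.0274).

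In pigs of low birth weight the same 3 weeks of restriction did not separate the groups. UR pigs had OTC log2 intensities of 14.23, 14.04 and 14.27, and UK pigs had 14.31, 14.30 and 13.96. These ranges overlapped, and the mean difference was -0.01 (95% confidence interval -0.35 to 0.34, limma p 0.967). The test of the difference between both restriction effects gave -0.54 on the log2 scale, UR minus UK less NR minus NK (SE 0.22, 95% confidence interval -1.03 to -0.06), with a p of 0.0325 and an adjusted p of 1. With slide as a term this difference was -0.57 (limma p 0.0554). Of its 12 fits that left out an array, 6 had an unadjusted p under 0.05. Averaged over both birth weights, the restriction effect on OTC was 0.27 (SE 0.11, p 0.0360, adjusted p 0.567). With slide as a term in the model it was 0.17 (p 0.247). The third UK pig was the only T2 array on slide 4, so a slide term sets it aside. The averaged effect and the difference rest on the same 12 pigs of T2 as the effects within each birth weight.

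After refeeding, the OTC levels of NR and NK overlapped. NR pigs stood at 14.70, 14.84 and 14.62 and NK pigs at 14.22, 14.76 and 14.36, with a difference of 0.28 (95% confidence interval -0.29 to 0.84, limma p 0.305). The UK pigs, at 15.25, 14.95 and 15.23, lay above each NK pig. UK minus NK was 0.70 on the log2 scale (SE 0.26, 95% confidence interval 0.13 to 1.26), or 1.62-fold, with a limma p of 0.0210 and an adjusted p of 1. All UK values lay above all NK values in OTC and PCK2, 2 of the 6 members, and in 2.28% of all rows, and they lay below them in 5.18% of all rows. Within slide 4 (1 UK and 2 NK pigs) the difference was 0.46, and within slide 6 (1 pig of each) it was 0.87. On slide 4 the UK pig stood at 14.95 and the NK pig of the same scan at 14.76. The other NK pig of slide 4, the array of scan 3, stood at 14.22. With scan as a term it was 0.53 (p 0.0543), and without the first NK pig, the array of scan 3, it was 0.58 (p 0.0676). Both settings set that pig aside, since it was alone in its scan. Of the 6 fits that left out an array, 2 had an unadjusted p under 0.05. The UR pigs spread more widely, at 15.23, 14.91 and 14.26, so that UR minus UK was -0.34 (p 0.213) and UR minus NR was 0.08 (p 0.760). NR minus NK and UK minus NK share the NK pigs, and the lower NK values enter both.

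At T1, before any restriction, OTC did not separate the birth weights. N pigs had 14.25, 14.35 and 13.95 and U pigs 13.94, 14.30 and 14.20, a difference of -0.04 (95% confidence interval -0.45 to 0.38, limma p 0.830).

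ARG1, which carries out the last step of the cycle, did not show the pattern of OTC. At T2 its log2 intensity was 14.88, 14.53 and 15.26 in NR and 14.80, 15.69 and 15.91 in NK, and 13.60, 15.19 and 14.76 in UR against 14.34, 14.76 and 15.19 in UK. The ranges overlapped for both birth weights. The restriction effect was -0.58 (95% confidence interval -1.53 to 0.37) in normal and -0.25 (-1.20 to 0.70) in low birth weight pigs. At T3 ARG1 lay between 12.92 and 15.05 over the 12 pigs, and its differences were between -0.51 and 0.18 with limma p-values of 0.371 to 0.956. At T3 the pooled SD of ARG1 within groups was 0.74, against a median of 0.45 over all rows.

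PCK2, the mitochondrial carboxykinase, had a pooled SD between pigs of a group of 0.23 at T2, against 0.16 for OTC. At T2 NR pigs had 13.52, 12.92 and 13.59 and NK pigs 12.99, 13.11 and 13.01, and UR pigs had 13.35, 12.93 and 13.30 against 12.88, 12.74 and 13.01 in UK. In each restricted group 2 pigs lay above all controls, while the second pig lay below the controls in NR and within their range in UR. The restriction effect was 0.30 in normal and 0.31 in low birth weight pigs, neither with a p under 0.05 on its own (0.146 and 0.135). Averaged over both it was 0.31 (SE 0.14, 95% confidence interval 0.01 to 0.61), or 1.24-fold, with a limma p of 0.0466 and an adjusted p of 0.582. With slide as a term the effect was 0.18 (p 0.269), and within slide 5 NR minus NK was -0.14. Within slides 1 and 2, with 1 UR and 1 UK pig each, UR minus UK was 0.05 and 0.61. The third pigs of NR and UR lay on slide 3, which held no control of T2, and the third UK pig was the only T2 array on slide 4.

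At T3 the averaged restriction effect on PCK2 was 0.03 (p 0.842), and the change from T2 to T3 was -0.28 (95% confidence interval -0.69 to 0.13, limma p 0.165). The same change for OTC was -0.30 (-0.74 to 0.14, p 0.175). As for OTC, the 3 UK pigs of T3 lay above the 3 NK pigs in PCK2, at 13.43, 13.22 and 13.41 against 12.68, 13.08 and 13.20. That difference was 0.37 with a limma p of 0.0960. The lowest NK value was that of the first NK pig, the array of scan 3, with 55.0% of probes well above background. Birth weight made a difference of -0.06 at T1 (95% confidence interval -0.52 to 0.40).

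**Figure D2:**
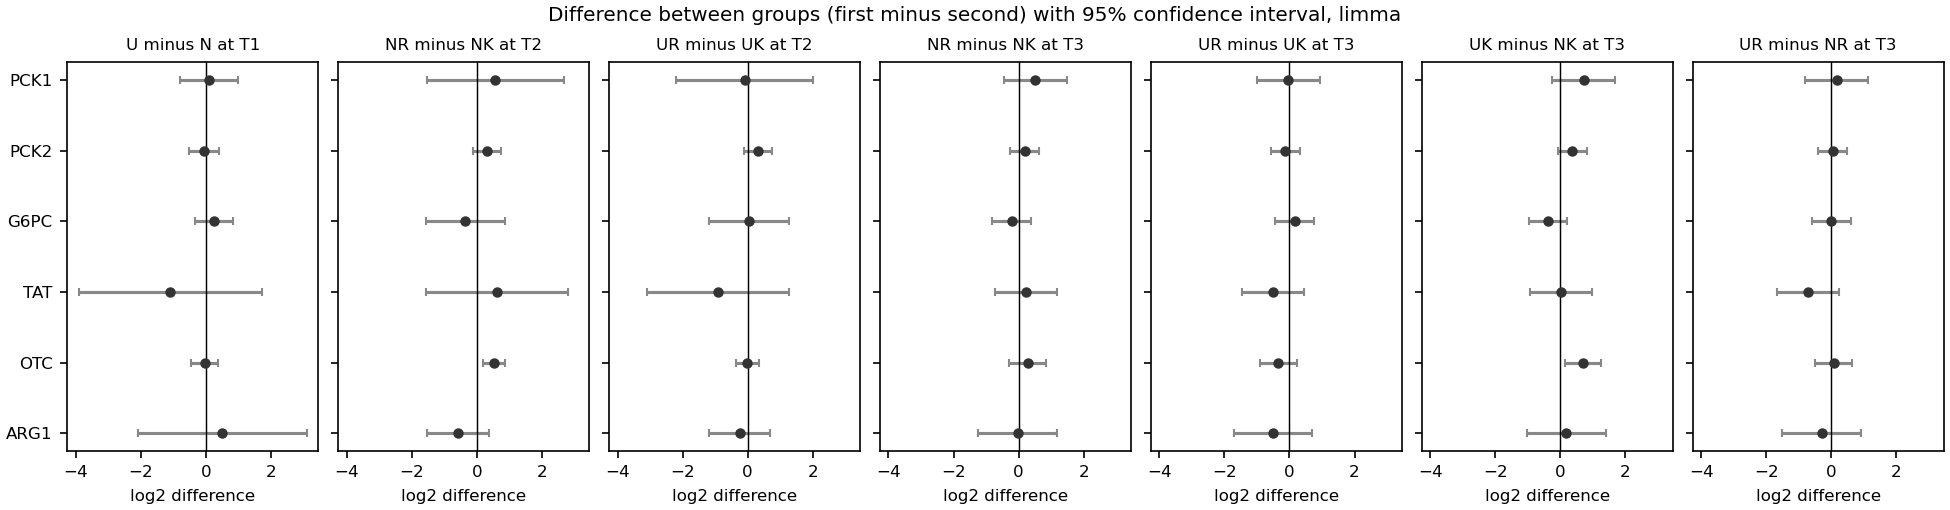
Difference in log2 intensity between 2 groups (horizontal axis, first minus second) for the 6 genes (vertical axis) in 7 comparisons; points are limma estimates and bars are 95% confidence intervals, with 3 pigs per group. The OTC intervals of NR minus NK at T2 (0.19 to 0.88) and of UK minus NK at T3 (0.13 to 1.26) lie above 0, all others include it, and the intervals of PCK1, TAT and ARG1 are wide.

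PCK1 encodes the cytosolic carboxykinase, the form that hormones regulate. At T2 its log2 intensity was 15.98, 15.94 and 13.48 in NK and 15.99, 15.89 and 15.24 in NR. It was 16.15, 13.43 and 15.12 in UK and 15.96, 12.87 and 15.59 in UR. In 3 of the 4 groups a single pig lay far below the other pigs, the third of NK, the second of UK and the second of UR, and these were both controls and restricted pigs. Within a group the highest pig exceeded the lowest by 5.62-fold in NK, 6.61-fold in UK, 8.49-fold in UR and 1.68-fold in NR. The pooled SD within groups was 1.32, and only 0.765% of the other rows had a larger one. With this spread the restriction effect was 0.57 (95% confidence interval -1.54 to 2.69) in normal and -0.09 (-2.21 to 2.02) in low birth weight pigs, so that a 4-fold change in either direction lay inside the second interval.

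PCK1 varied less at the other time points. At T3 it was 15.39, 16.64 and 17.25 in NK, 16.32, 17.02 and 17.47 in NR, 17.21, 17.12 and 17.09 in UK, and 17.09, 16.82 and 17.40 in UR. The first NK pig, the array of scan 3, was the lowest of the 12. UK minus NK was 0.72 (95% confidence interval -0.25 to 1.68, limma p 0.130). At T1 the N pigs had 16.46, 16.70 and 16.92 and the U pigs 17.48, 16.14 and 16.74, a difference of 0.10 (limma p 0.802).

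G6PC, the final enzyme of glucose release, had its widest spread at T2 as well. Its log2 intensity was 14.66, 15.07 and 15.29 in NK, 14.10, 15.65 and 14.20 in NR, 15.68, 13.53 and 15.13 in UK, and 15.03, 14.39 and 15.05 in UR. The second UK pig was the lowest of the low birth weight pigs and also the lowest of its group in PCK1. The second UR pig was the lowest of its group in both genes. The third NK pig, low in PCK1, was the highest of its group in G6PC. The restriction effect was -0.35 (95% confidence interval -1.57 to 0.87) in normal and 0.04 (-1.18 to 1.26) in low birth weight pigs. At T3 the 12 pigs lay between 15.68 and 16.81, and the pooled SD of 0.32 was exceeded by 70.9% of the other rows. Birth weight differences were 0.26 at T1 (p 0.306) and, for UK minus NK at T3, -0.37 (p 0.192).

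TAT spread more within groups than any other of the 6 genes at T1 and T2. At T2 it was 10.10, 8.90 and 8.80 in NK, 11.22, 9.38 and 9.06 in NR, 8.37, 9.90 and 10.66 in UK, and 7.85, 11.06 and 7.28 in UR. The UR group alone spanned 13.7-fold, and it held both the lowest and the highest of the low birth weight pigs of T2. The pooled SD was 1.36, which 0.649% of the other rows exceeded. The restriction effect was 0.62 (95% confidence interval -1.56 to 2.80) in normal and -0.91 (-3.10 to 1.27) in low birth weight pigs. Its difference between birth weights was -1.53 (-4.62 to 1.55, limma p 0.295). At T3 TAT lay between 9.03 and 10.12 in NK, NR and UK and was 9.97, 8.88 and 8.16 in UR. UR minus NR was then -0.73 (-1.68 to 0.23, p 0.121) and UR minus UK -0.52 (-1.47 to 0.43, p 0.253). Without the first UR pig, which stood above both others, these differences were -1.21 (p 0.00813) and -1.003 (p 0.0208). With slide as a term they were -1.42 (p 0.0151) and -1.09 (p 0.0249), and adjusted p-values in both settings were 0.998 to 1. The first UR pig was the only T3 array on slide 5, so the slide term fitted it exactly. Both settings thus set the same pig aside and are not separate checks. The first UR pig ran against both differences. Without the second or the third UR pig neither difference had an unadjusted p under 0.05. Within slides 4 and 6, with 1 pig of each group, UR minus UK was -1.05 and -1.45. The UR array of slide 4 had 53.6% of probes well above background, the lowest share of all arrays, and the UK array of that slide had 68.7%. At T2 the restriction effect in low birth weight pigs likewise moved with a single pig, and was -2.08 (p 0.0252, adjusted p 0.840) without the second UR pig, whose TAT was 11.06. Without the first or the third UR pig of T2 its unadjusted p was not under 0.05.

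Before restriction, 2 pigs stood apart from the other 4 in TAT and ARG1. TAT was 9.63, 10.04 and 7.98 in the N pigs and 5.82, 9.47 and 9.07 in the U pigs. ARG1 was 14.18, 13.99 and 16.29 in the N pigs and 17.27, 14.34 and 14.36 in the U pigs. The third N pig and the first U pig thus had the lowest TAT and the highest ARG1 of their groups, and the other 4 pigs lay between 9.07 and 10.04 in TAT and between 13.99 and 14.36 in ARG1. The pooled SD at T1 was 1.61 for TAT and 1.49 for ARG1, exceeded by 0.725% and 0.987% of the other rows. The differences between birth weights, -1.10 for TAT (95% confidence interval -3.91 to 1.71) and 0.50 for ARG1 (-2.10 to 3.11), were smaller than this spread.

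The same 2 pigs stood at an end of their group in every measured enzyme. They were the highest of their groups in PCK1, G6PC and ARG1 and the lowest in PCK2, TAT and OTC, so that 6 of 6 members had both pigs at the same end. Of all rows, 38.1% had both pigs at the same end, and since the pigs were singled out after their values were seen, the count is a description. On the nearest scanner probes, scaled to the 75th percentile of each array, TAT was -0.74 and -2.99 in these pigs and 0.33 to 1.29 in the other 4. Their arrays, on slides 2 and 1, had the smallest shares of probes well above background of their groups, 65.5% and 65.1%. The part of array quality in the pattern was not tested.

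**Figure D3:**
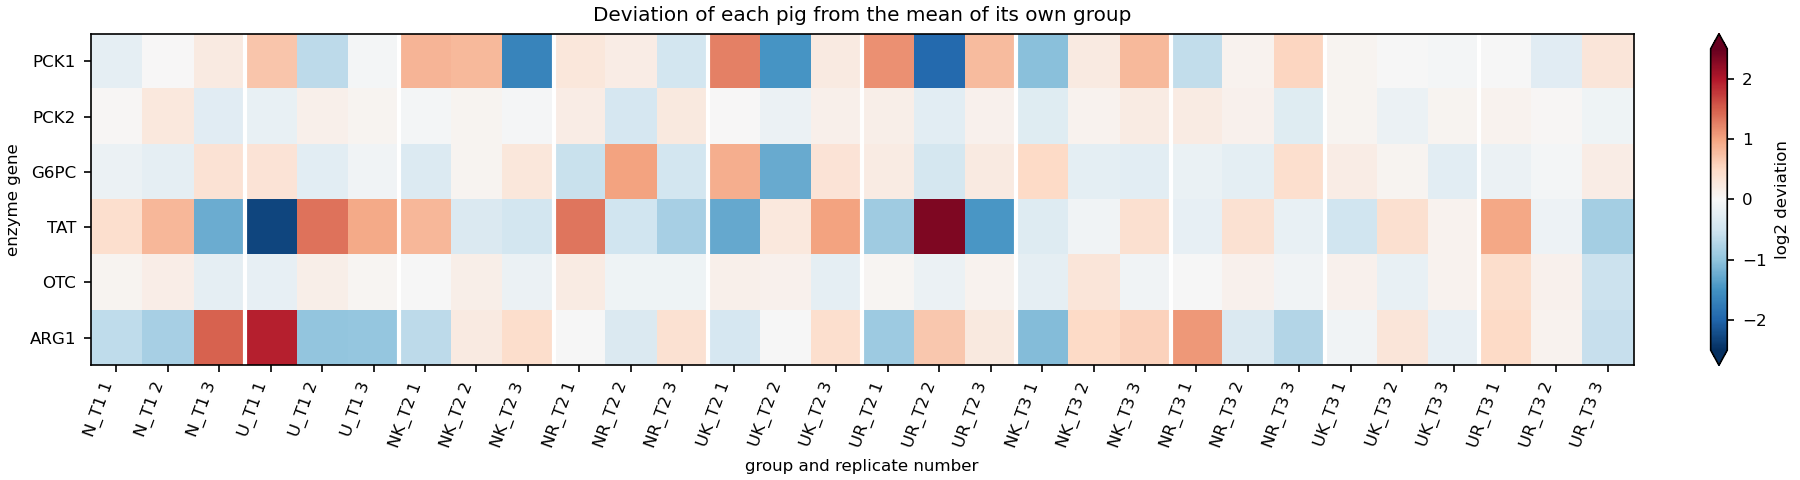
Deviation of each pig from the mean of its own group in log2 intensity (colour) for the 6 genes (rows) in the 30 pigs (columns, by group and replicate number); colours run to 2.5 in either direction, and white lines part the groups. The third N pig and the first U pig of T1 show low TAT with high ARG1, the low PCK1 of single pigs at T2 stands out in NK, UK and UR, and PCK2 and OTC stay pale throughout.

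Whether pigs that were high in one enzyme were also high in another was examined on the deviations from the group means, over 15 pairs of genes in the 18 pigs of T1 and T2 and 15 pairs in the 12 pigs of T3. After adjustment over the 15 pairs of a set, 0 of 30 pairs passed by an exact permutation test within groups, and without adjustment 2 passed at T1 and T2 and 5 at T3. At T1 the 6 pigs fell into the 2 pigs described above and the other 4, so no correlation is given for that time point alone, and the value for T2 alone is given with each pooled one. At T3 the third pigs of all groups share slide 6 and scan 4, and same-numbered arrays correlated by up to 0.66 across all rows, whereas the permutation treats the pigs of a group as exchangeable.

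G6PC and TAT, both hormone-regulated genes, had a negative correlation in every set. Over T1 and T2 Pearson's r was -0.52 and Spearman's rho -0.57 (exact permutation p 0.0344 and 0.0313, adjusted p 0.258 and 0.235, n = 18). Without the 2 pigs farthest from the median of G6PC, r was -0.66, with an adjusted exact permutation p of 0.00289 (n = 16), and this was the only pair of the 30 to pass in that setting. The 2 pigs left out were the second UK and the second NR pig of T2, and the third N and first U pig of T1, both high in G6PC and low in TAT, stayed in. At T2 alone r was -0.48 and rho -0.45 (exact permutation p 0.140 and 0.165, n = 12). At T3 r was -0.52 and rho -0.59 (exact permutation p 0.0409 and 0.0486, adjusted p 0.141 and 0.240, n = 12), and r was -0.57 without the 2 farthest pigs. With the means of the scans removed as well as those of the groups, r was -0.46 in both sets. At T3 this removal leaves no deviation for the first NK pig, the only array of scan 3. Every T3 value with scan means removed, here and below, therefore sets that pig aside.

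The pair within the urea cycle, OTC and ARG1, had opposite signs in the sets, a difference that was not tested. Over T1 and T2 r was -0.69 and rho -0.64 (exact permutation p 0.0112 and 0.0134, adjusted p 0.168 and 0.200, n = 18). Without the 2 pigs farthest in OTC r was -0.62 (exact permutation p 0.0756). At T2 alone r was -0.40 and rho -0.52 (exact permutation p 0.223 and 0.114). At T3 r was 0.46 and rho 0.42 (exact permutation p 0.174 and 0.242), and with scan means removed r was -0.66 over T1 and T2 and 0.000337 at T3.

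At T3 the lowest p belonged to the mitochondrial carboxykinase and the phosphatase. PCK2 with G6PC had an r of -0.89 and a rho of -0.83 (exact permutation p 0.0224 for both, adjusted p 0.141 and 0.240, n = 12). Without the first NK and the third NR pig, the farthest in PCK2, r was -0.69 (exact permutation p 0.201), and with scan means removed it was -0.78. Over T1 and T2 the same pair had an r of -0.28 and a rho of -0.34 (exact permutation p 0.421 and 0.281), and at T2 alone an r of -0.17 and a rho of -0.20. PCK2 with ARG1 had an r of 0.79 and a rho of 0.75 at T3 (exact permutation p 0.0278 and 0.0363). Without the 2 farthest pigs r was 0.57 (exact permutation p 0.146), and with scan means removed it was 0.53. Over T1 and T2 r was -0.44 and rho -0.40 (exact permutation p 0.104 and 0.132), while at T2 alone r was 0.04 and rho -0.03. The last of the 5 pairs at T3 were PCK2 with OTC at an r of 0.53 (rho 0.57) and G6PC with OTC at -0.54 (rho -0.51), with exact permutation p-values of 0.0463 (0.0640) and 0.0486 (0.132). With scan means removed r was 0.27 and -0.35. PCK1 with G6PC, the pair that brackets the glucose-forming path, had an r of 0.51 and a rho of 0.41 over T1 and T2 (exact permutation p 0.0592 and 0.121), and at T2 alone of 0.48 and 0.29. At T3 r was -0.26 and rho -0.17 (exact permutation p 0.630 and 0.727), but r was 0.53 with scan means removed and 0.55 without the 2 farthest pigs. These 2 were the first and the third NK pig. Both settings thus set the first NK pig aside and are not separate checks, and the sign at T3 is not settled.

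**Figure D4:**
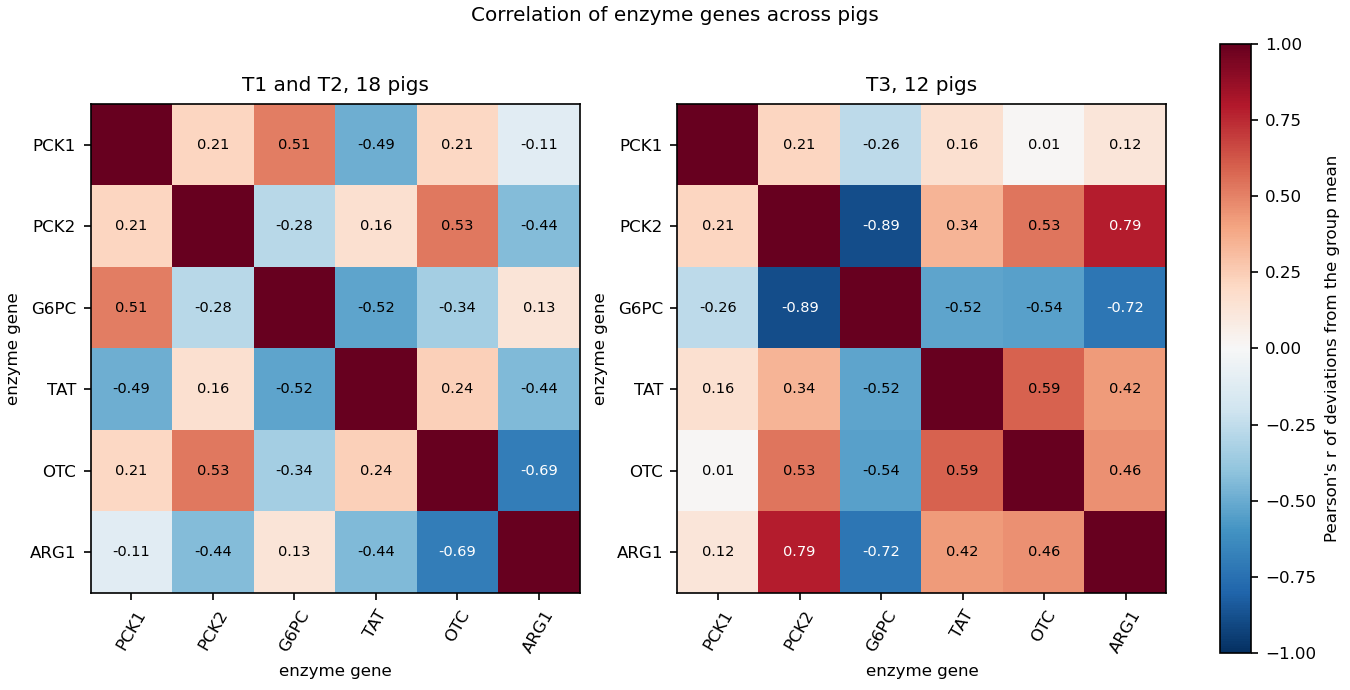
Pearson's r (colour and printed value) between the deviations of each pair of the 6 genes from the group mean, over the 18 pigs of T1 and T2 (left) and the 12 pigs of T3 (right). G6PC with TAT is -0.52 in both, while OTC with ARG1 is -0.69 on the left and 0.46 on the right.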

How the data were processed

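Per the file headers, arrays were read in 1 colour with Agilent Feature Extraction 10.5.1.1. The table that the authors deposited holds intensity on a linear scale (2.1 to 549576). How it was made is not given in the sources used here. Sorted columns differed by a root mean square of at most 0.0915 on the log2 scale within 4 sets (T1, normal T2, low T2, T3). Between sets they differed by at least 0.0991, so the table was taken as normalized separately in each set. The largest value within a set and the smallest to another set were 0.0915 and 0.109 for T3, and 0.0265 and 0.0991 for T1. Quantile normalization within sets was assumed for matching probes to rows, and the method used by the authors is not settled here. The log2 of these intensity values, deposited by the authors, was fitted with limma 3.58.1 (R 4.3.3; Python 3.11.15, numpy 2.4.6, pandas 2.3.3) over all 19864 rows with a mean per group, separately at T1, T2 and T3, or over T2 and T3 for the change between them. Two-sided p-values were adjusted over all rows (Benjamini-Hochberg) and called under 0.05. The 3 pigs per group limit the precision. The script was tested on simulated data.

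A difference was named where its unadjusted p was under 0.05, or where the groups did not overlap and differed by at least 1 on the log2 scale. Of the table's columns, 27 of 30 matched their own scanner file. A single probe equalled 3418 of the rows within 0.05 over 24 arrays; among the members this held for TAT (0.0487), and for the other 5 the nearest probe differed by 0.0742 to 0.168. Correlations used the deviations from group means, with all 46656 (T1 and T2) or 1296 (T3) rearrangements within groups counted in place of the random draws first planned, over 15 pairs. The other pathway genes and the liver cell type markers on the lists could not be named, since 0 rows were paired with a symbol by the tables used here. The members and lists were chosen with earlier results of these data known.

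The labels do not say that a replicate number marks a shared litter or day. Same-numbered arrays correlated above 0.1 in every pair between NK and NR, UK and UR, and NR and UR at T3 (lowest 0.168, 0.153 and 0.353). They did not between N and U at T1 (lowest -0.21), NK and NR (0.0888) and UK and UR (0.0854) at T2, and NK and UK at T3 (0.0797). With the N columns of T1 numbered by the scanner file they match, the lowest correlation with U was 0.247.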

Additional observations from a re-analysis of the deposited data

How the results depend on the processing

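The count of members called by limma was 0 in each of the 12 comparisons, and 0 under each alternative that could be fitted: leaving out the lowest 25% of rows, adding 16 before log2, subtracting array medians, all 30 arrays in 1 fit, slide or scan as a term, array weights, the nearest probes of the scanner files (41061 probes), and leaving out each array (0 to 0 over 114 fits). With replicate number as a block it was 0 in each comparison, and it was 0 with the N columns of T1 renumbered by their scanner files, a pairing chosen after seeing the data. Scan could not be fitted at T1, where all arrays shared it. The nearest probes were picked by how closely their signal followed the rows at T2 and T3. The fit on the scanner files is therefore not an independent check. For the correlations, leaving out the 2 pigs farthest from the median gave 1 pair past the adjusted threshold, G6PC with TAT, in place of 0. The 5 differences named by unadjusted p kept their direction in all 93 refits, and the p stayed under 0.05 in 59 of them and not in 34. Of these 5, the one of OTC between NR and NK at T2 kept it in all its refits (p 0.00229 to 0.0432, adjusted p 0.373 to 1). Differences of members other than these 5 came under an unadjusted p of 0.05 in 13 cases over the refits (lowest adjusted p 0.489). Of these, 8 were of TAT, without the second UR pig at T2, or without the first UR pig or with slide as a term at T3. The slide term at T3 also set the first UR pig aside, since it was alone on its slide. The others were PCK2 without the second NR pig of T2 (NR minus NK 0.52, p 0.0111, and T3 minus T2 -0.39, p 0.0428), PCK1 in UK minus NK at T3 without the third NK pig (1.13, p 0.0226), and the OTC difference between birth weights at T3 with all 30 arrays in 1 fit (-0.62, p 0.0426) or without the first UR pig (-0.83, p 0.0379). The causes of these changes were not tested.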
